A study of Ovis aries with 15 samples.

Results

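Autophagy is the process by which a cell encloses part of its own cytoplasm, proteins or organelles in a double membrane, the autophagosome, and delivers it to the lysosome for breakdown. The ULK1 kinase complex starts it, a class III phosphatidylinositol 3-kinase complex marks the membrane, lipid transfer proteins supply it, and ubiquitin-like conjugation systems attach ATG8 proteins to its lipid, where cargo receptors bind. In the mammary gland autophagy is best known from involution after weaning. The genes described here are the core of that machinery, taken as the rows of the deposited table whose feature name is 1 of 40 listed gene symbols. Of the 40 symbols, 38 were found among the 24691 features of the table, each in a single row, and all 38 passed the filter on low reads and were tested. ATG101 and PIK3R4 were not found under those symbols and are not analysed here as members. A feature that a RefSeq gene table ties to PIK3R4 by its gene identifier, and which has no annotated transcript in the deposited table, had a log2 change of 0.31 ± 0.06 (SE, edgeR adjusted p = 0.00011).

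Mammary parenchyma was taken by needle biopsy from 2-year-old Romney ewes in their first pregnancy, on day 135 of gestation (late pregnancy) and again on day 15 post partum (lactation). RNA of several ewes was pooled for each library, which gave 9 late pregnancy and 6 lactation libraries. A late pregnancy pool holds 3 ewes, and the sources differ on whether a lactation pool holds 2 or 3. The ewes differed in how their own dams had been fed in early gestation, which was ad libitum (HM), at maintenance (MM) or below maintenance (LM), with maintenance feeding of all dams thereafter, and each of the 3 dam groups holds 3 late pregnancy libraries (HMLP, MMLP and LMLP) and 2 lactation libraries (HML, MML and LML). A biopsy holds every cell type of the parenchyma, so fewer cells of a type and less RNA per cell cannot be told apart.

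The reads counted, those on exons or on the whole gene where no transcript is annotated, numbered 6471237 to 16898986 per late pregnancy library and 9014506 to 24001031 per lactation library. The caseins (CSN1S1, CSN1S2, CSN2, CSN3) with BLG, GLYCAM1 and LALBA, the milk protein genes, took from 13.7% to 23.4% of what was counted in late pregnancy against 71.3% to 75.8% in lactation, and the 38 autophagy genes took 0.298% to 0.352% and 0.104% to 0.117%. Library sizes were therefore scaled by TMM, a method that sets the bulk of genes level between libraries, and levels are given as TMM-scaled RPKM, which is reads per kilobase of exon relative to the scaled library size (CPM, for other genes, leaves out the length). Changes are log2 of lactation over late pregnancy with their SE from edgeR's quasi-likelihood test, and calls require an adjusted p under 0.05 over all genes tested. HML pool 1 stood apart from the other lactation libraries, with 13.2% of its reads on annotated genes lying outside exons against 5.85% to 6.68% in the other 5 and 14.4% to 16.1% in late pregnancy. Leaving that library out changed the call of BNIP3 alone among the autophagy genes and moved ATG2B, ATG10, ATG13, WIPI2 and BNIP3L, which were not called with or without it, by over 1.5 times. Markers of several cell types moved between the states beside every result below. All 5 proliferation markers tested (such as MKI67 and TOP2A) fell, their summed level going from 77.8 to 153 CPM in late pregnancy to 8.35 to 24.5 CPM in lactation. All 5 T cell markers fell (summed 39.7 to 63.5 and 12.7 to 19.5 CPM), as did all 3 endothelial markers (140 to 192 and 85.8 to 124 CPM), 3 of 4 fibroblast markers (353 to 627 and 225 to 372 CPM) and 3 of 5 macrophage markers (104 to 136 and 62.2 to 92.1 CPM), while 1 macrophage marker, CD14, rose. Of 7 luminal epithelial markers, 4 rose and 1 fell (summed 1521 to 1877 and 2384 to 2621 CPM), and of 5 myoepithelial markers 2 rose and 2 fell (527 to 593 and 485 to 714 CPM). Of 3 adipocyte markers LPL rose (list summed 233 to 442 and 1493 to 1816 CPM). Most of that sum in lactation was LPL (6.35 to 19.0 and 1152 to 1471 CPM). ADIPOQ and FABP4 were not called (edgeR adjusted p = 0.35 and 0.73). No marker found in the table was at 0 in every library of a state, and the labelled tissue carried its epithelial markers in both states. The part of these shifts in the autophagy genes was not tested.

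The autophagy genes changed in both directions and by less than 2-fold. In lactation 19 of the 38 rose, 7 fell and 12 were not called. The 26 called members are 68.4% of those tested, and of all 13345 genes tested 68.4% were called, so members were called no more often than genes at large. By direction, 50.0% of the members were called higher in lactation against 33.1% of all genes, and 18.4% were called lower against 35.2% of all genes. The median log2 change was 0.17 over the members and -0.03 over all genes tested. These medians were 0.084 and -0.014 with a filter of 10 reads in every library, and 0.054 and -0.05 in quantile-normalized RPKM. Whether the members differ from all genes in direction was not tested. None of the called members reached an absolute log2 change of 1, which 32.4% of all called genes did. No overlap between late pregnancy and lactation libraries was seen for 17 members, or 44.7%, of which 15 were higher and 2 lower in lactation, and for 40.2% of all genes.

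**Figure D1:**
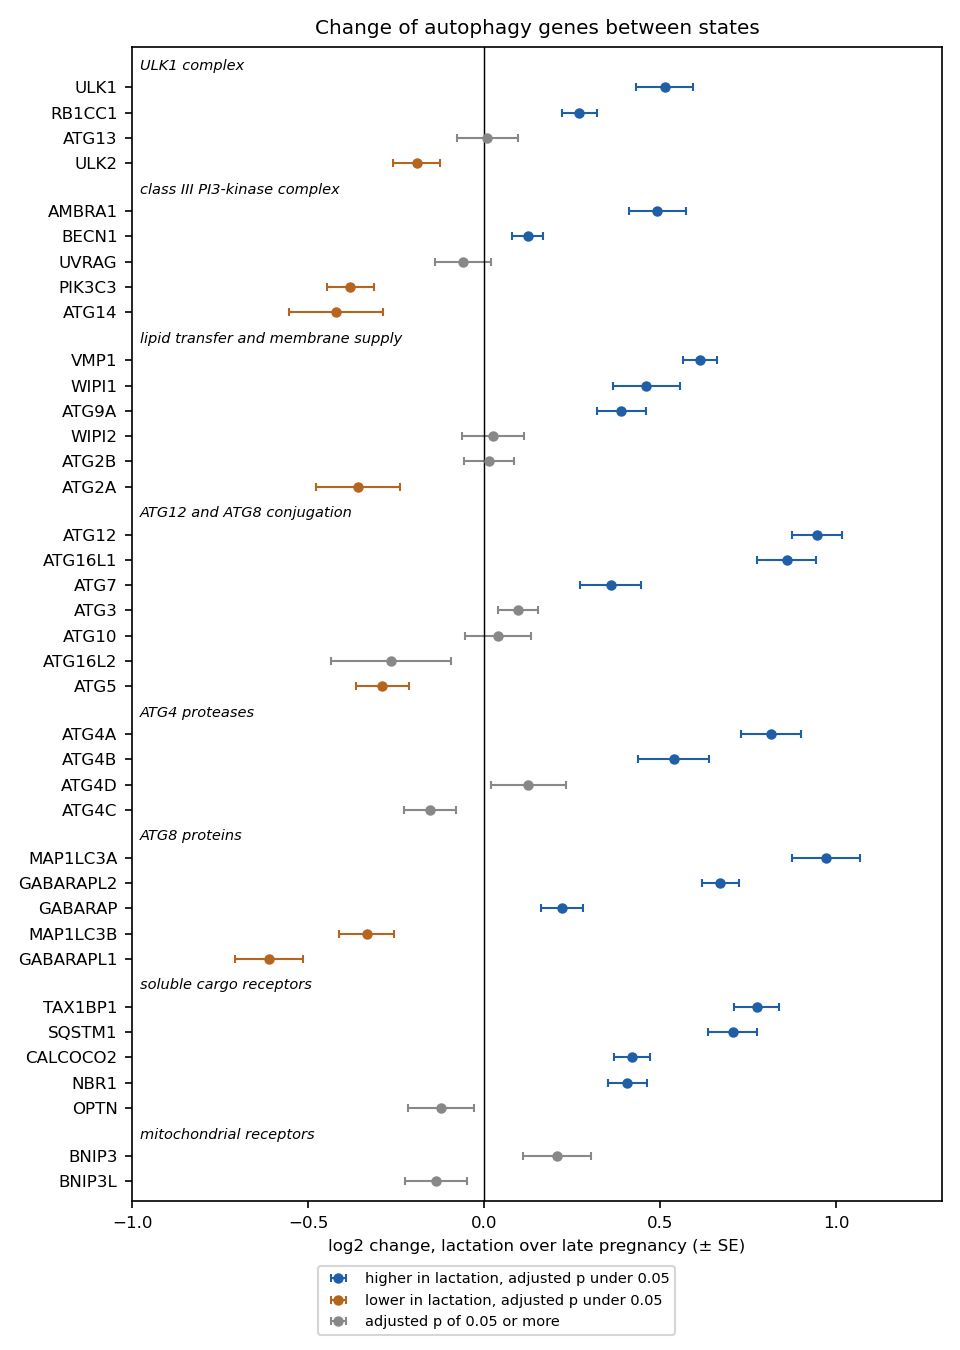
Log2 change of each autophagy gene, lactation over late pregnancy (x axis, points, with bars for ± 1 SE from edgeR), grouped by role. The largest rise is that of MAP1LC3A (0.97) and the largest fall that of GABARAPL1 (-0.61), with 19 genes called higher and 7 lower under TMM scaling, where the rises of BECN1 and GABARAP turn negative with quantile normalization, that of BECN1 also under 2 other scalings, and all 19 with total reads alone.

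The direction of a call depends on the scaling, and reads of milk proteins take up most of a lactation library. Without scaling beyond total reads, all 38 members were called lower in lactation, as were 12705 of all 13345 genes (all-gene median -1.94). Without milk protein genes in the library size, 15 members were called higher and 13 lower, beside 3032 and 6476 of all genes (median -0.24). With upper quartile scaling 17 members were called higher and 12 lower, beside 3420 and 5990 of all genes (median -0.18). With limma on the quantile-normalized RPKM the members were 17 and 11, beside 4111 and 5085 of all genes (median -0.05). A scaling of whole libraries moves every gene and the median of all genes by nearly the same amount. Whether a member lay above or below that median could therefore hardly change, except in the quantile-normalized values. There 17 of the 19 higher members lay above it, 2 (BECN1 and GABARAP) lay below it, and all 7 lower members lay below it. Every one of the 26 calls held with each of the 15 libraries left out in turn. Of the other 12 members, BNIP3 gained a call without HMLP pool 3, HML pool 1 or HML pool 2, ATG4C without HMLP pool 3 or MMLP pool 2, and BNIP3L without HML pool 2.

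**Figure D2:**
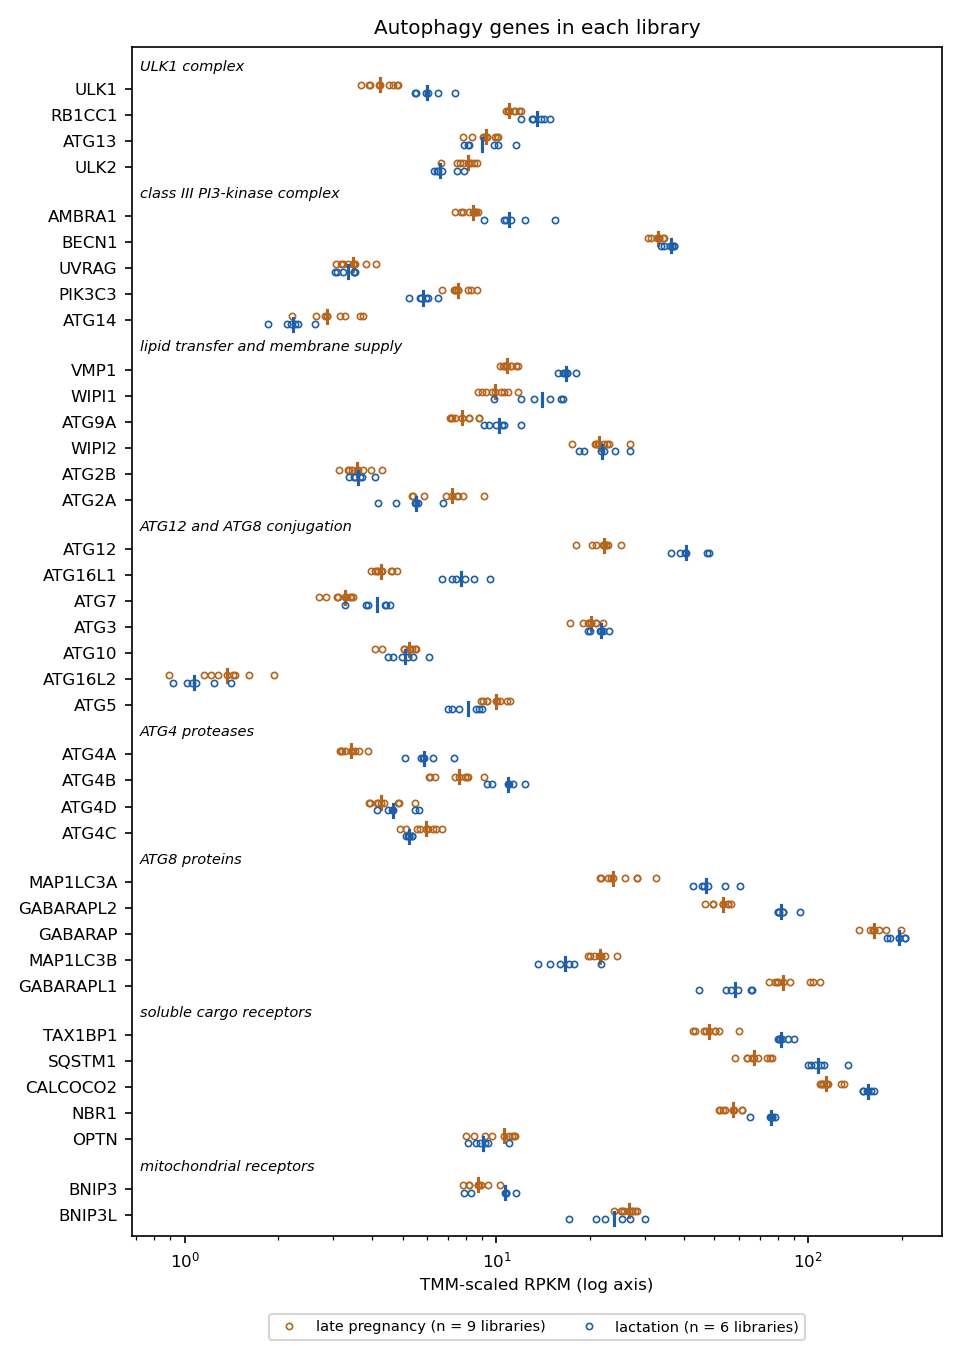
TMM-scaled RPKM of each autophagy gene (x axis, log scale) in each of the 9 late pregnancy and 6 lactation libraries (circles), with the median of each state as a vertical bar. Levels span from about 1 for ATG16L2 to over 100 for GABARAP and CALCOCO2, and the libraries of the 2 states lie apart for 17 of the 38 genes, among them MAP1LC3A, ATG12 and TAX1BP1.

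The members spanned more than 100-fold in level, and the order was similar in both states. GABARAP, an ATG8 protein, was highest, with a median of 162 TMM-scaled RPKM in late pregnancy and 195 in lactation, and in neither state did its libraries overlap those of CALCOCO2, the cargo receptor in second place (114 and 155). In late pregnancy GABARAPL1 (82.9), SQSTM1 (67.0), NBR1 (57.2), GABARAPL2 (53.2) and TAX1BP1 (47.9) followed, and each of these overlapped its neighbour in the order. In lactation SQSTM1 (108) stood apart from CALCOCO2 above it and TAX1BP1 (81.9) below it, while TAX1BP1 and GABARAPL2 (81.7) overlapped. NBR1 (76.1) lay below both without overlap, and GABARAPL1 (58.1), in place 7, overlapped NBR1. At the other end ATG16L2, a relative of ATG16L1, was lowest in both states, at medians of 1.37 and 1.08. Within a state the members varied little between libraries, with a median coefficient of variation of 8.62% in late pregnancy (from 3.61% for BECN1 to 21.4% for ATG16L2) and 11.1% in lactation (from 1.75% for ATG4C to 19.4% for BNIP3L). Positions follow the deposited table, whose genome is version 3.2 in the paper and Oar_v3.1 in the labels. Chromosome 11 carries 7 of the members (BECN1, CALCOCO2, GABARAP, NBR1, ULK2, VMP1 and WIPI1), of which 6 rose and ULK2 fell. The rises of BECN1 and GABARAP turned negative in quantile-normalized values (-0.11 and -0.060). How other genes of that chromosome changed was not tested.

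The ULK1 complex is the kinase complex that receives nutrient signals. Of its 4 members found, ULK1 and RB1CC1 rose, ULK2 fell and ATG13 was not called. ULK1, the catalytic kinase (chromosome 17, 44763375 to 44785882), had 3.68 TMM-scaled RPKM in the lowest late pregnancy library, a median of 4.23 and 4.83 in the highest, against 5.49, 5.98 and 7.37 in lactation. Every lactation library lay above every late pregnancy library, and the log2 change was 0.51 ± 0.08 (SE, adjusted p = 1.3e-05), a 1.43-fold rise. RB1CC1, the scaffold of the complex also known as FIP200, rose by 0.27 ± 0.05 (adjusted p = 7.5e-05) with no overlap between states, a call lost when milk proteins were left out of the library size (0.060, adjusted p = 0.28). ULK2, a kinase related to ULK1, fell by 0.19 ± 0.07 (adjusted p = 0.015), with overlapping libraries (6.63 to 8.69 and 6.29 to 7.90), and its call was lost with reads across exon junctions (adjusted p = 0.49). ATG13, which links the kinase to RB1CC1, had a log2 change of 0.01 ± 0.09 (adjusted p = 0.93).

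The class III phosphatidylinositol 3-kinase complex makes the lipid that recruits later factors. Its catalytic subunit PIK3C3 (VPS34) and its autophagy-specific subunit ATG14 fell, while AMBRA1 and BECN1, which regulate or hold it, were called higher. AMBRA1 (chromosome 15, 74630172 to 74765337) ranged from 7.39 through a median of 8.39 to 8.70 TMM-scaled RPKM in late pregnancy and from 9.15 through 10.9 to 15.4 in lactation. The groups did not overlap, and the log2 change of 0.49 ± 0.08 (adjusted p = 2.3e-05) became 0.40 without HML pool 1, its highest library. PIK3C3 went from 6.72 to 8.65 in late pregnancy to 5.26 to 6.51 in lactation, again without overlap, a fall by 0.38 ± 0.07 (adjusted p = 4.7e-05). ATG14 was among the lowest members (medians 2.87 and 2.23) and fell by 0.42 ± 0.13 (adjusted p = 0.0088), with libraries that overlapped. The change of BECN1, the Beclin 1 subunit, was the smallest called, at 0.12 ± 0.04 (adjusted p = 0.017), and its sign turned with upper quartile scaling (-0.027), with library sizes that leave out milk proteins (-0.087) and in the quantile-normalized values (-0.11). The BECN1 call was also lost with no filter on low reads (0.072, adjusted p = 0.22) and with the 10-read filter on each library (0.039, adjusted p = 0.42). UVRAG, which replaces ATG14 in another form of the complex, had -0.06 ± 0.08 (adjusted p = 0.59), and was called lower without milk proteins in the library size (-0.27, adjusted p = 0.009) and with upper quartile scaling (-0.21, adjusted p = 0.029).

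Genes that supply and shape the membrane gave 3 rises, 1 fall and 2 members not called. VMP1, an endoplasmic reticulum protein that moves lipids between membrane leaflets (chromosome 11, 10227723 to 10358377), had a lowest, median and highest level of 10.3, 10.8 and 11.7 TMM-scaled RPKM in late pregnancy and 15.8, 16.7 and 18.1 in lactation. The libraries were tight within each state and far apart between them, with a log2 change of 0.61 ± 0.05 (adjusted p = 5.8e-10). WIPI1, a reader of phosphatidylinositol 3-phosphate, rose by a log2 change of 0.46 ± 0.10 (adjusted p = 0.00027), with libraries that overlapped and 79.8% of its reads placed uniquely. ATG9A, the membrane protein of the vesicles that seed the autophagosome, rose by 0.39 ± 0.07 (adjusted p = 5.2e-05) without overlap. ATG2A, which carries lipid into the growing membrane, fell by 0.36 ± 0.12 (adjusted p = 0.012). Its relative ATG2B and the WIPI1 relative WIPI2 had log2 changes of 0.01 ± 0.07 and 0.02 ± 0.09 (adjusted p = 0.87 and 0.82), and ATG2B was called lower without milk proteins in the library size (-0.20, adjusted p = 0.018).

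The conjugation machinery attaches ATG12 to ATG5 and ATG8 proteins to lipid. Of its 7 members ATG12, ATG16L1 and ATG7 rose, ATG5 fell, and ATG3, ATG10 and ATG16L2 were not called. ATG12, the ubiquitin-like protein itself (chromosome 7, 4458307 to 4478590), had 18.0, 22.1 and 25.0 TMM-scaled RPKM as lowest, median and highest in late pregnancy and 36.3, 40.4 and 47.9 in lactation. The lowest lactation library was above the highest late pregnancy library, and the log2 change was 0.94 ± 0.07 (adjusted p = 3.4e-10), a 1.92-fold rise. ATG5, to which ATG12 is joined, fell by 0.29 ± 0.08 (adjusted p = 0.0021). ATG16L1, which directs the ATG12-ATG5 conjugate to the membrane, went from 3.96 to 4.79 in late pregnancy to 6.68 to 9.53 in lactation, a log2 change of 0.86 ± 0.08 (adjusted p = 2.1e-08). ATG7, the activating enzyme of both conjugations, rose by a log2 change of 0.36 ± 0.09 (adjusted p = 0.0011), which was 0.15 and not called without milk proteins in the library size (adjusted p = 0.13). The conjugating enzymes ATG3 and ATG10 had log2 changes of 0.10 ± 0.06 and 0.04 ± 0.09 (adjusted p = 0.15 and 0.72), and ATG16L2 had -0.27 ± 0.17 (adjusted p = 0.17) on 10 to 92 reads per library, with a call without milk proteins in the library size (-0.47, adjusted p = 0.019), with the upper quartile (-0.42, adjusted p = 0.037) and on junction reads (-0.57, adjusted p = 0.021).

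ATG4 proteases trim new ATG8 proteins and release them from lipid. ATG4A and ATG4B rose, and ATG4C and ATG4D were not called. ATG4A (chromosome X, 120079591 to 120157277) had 3.15, 3.42 and 3.88 TMM-scaled RPKM as lowest, median and highest in late pregnancy and 5.08, 5.85 and 7.30 in lactation. Its libraries did not overlap, with a log2 change of 0.81 ± 0.09 (adjusted p = 6.4e-08). ATG4B, the most abundant of the 4 (medians 7.56 and 10.9), rose by a log2 change of 0.54 ± 0.10 (adjusted p = 8.8e-05), also without overlap. ATG4C and ATG4D had log2 changes of -0.15 ± 0.08 and 0.13 ± 0.11 (adjusted p = 0.075 and 0.30), and 80.9% of the ATG4D reads were placed uniquely. ATG4C was called lower without milk proteins in the library size (-0.36), with the upper quartile (-0.30), in quantile-normalized values (-0.14) and with either other filter on low reads (-0.20 and -0.24), at adjusted p-values from 0.00036 to 0.041.

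The ATG8 family, the proteins that are attached to the autophagosome membrane and bind the cargo receptors, was called in all 5 of its genes and in both directions. Among all genes tested, 68.4% were called. MAP1LC3A (chromosome 13, 63487398 to 63488575), an LC3 protein, had 21.5, 23.6 and 32.5 TMM-scaled RPKM as lowest, median and highest in late pregnancy and 42.8, 47.0 and 60.6 in lactation. No lactation library came as low as the highest late pregnancy library, and its log2 change of 0.97 ± 0.10 (adjusted p = 2.5e-08), a 1.96-fold rise, was the largest among the members. MAP1LC3B, its close relative and the LC3 form most used as a marker of autophagosomes, fell by 0.33 ± 0.08 (adjusted p = 0.00092), from 19.6 to 24.3 in late pregnancy to 13.6 to 21.7 in lactation. Those ranges overlapped, 92.0% of its reads were placed uniquely, and its call was lost with reads across exon junctions (-0.14, adjusted p = 0.25).

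Among the GABARAP genes GABARAPL1 showed the opposite change to GABARAPL2. GABARAPL1 (chromosome 3, 204402017 to 204411916) went from 75.1, 82.9 and 109 TMM-scaled RPKM (lowest, median and highest) in late pregnancy to 44.6, 58.1 and 66.1 in lactation. The groups did not overlap, and it fell by 0.61 ± 0.10 on the log2 scale (adjusted p = 1.5e-05), the largest fall of any member, or by 0.55 without HML pool 1. GABARAPL2 rose by a log2 change of 0.67 ± 0.05 (adjusted p = 8.2e-10), from 46.7 to 56.4 in late pregnancy to 80.1 to 93.9 in lactation. GABARAP rose by a log2 change of 0.22 ± 0.06 (adjusted p = 0.0029), with libraries that overlapped, and the call was lost in the quantile-normalized values (-0.060, adjusted p = 0.28), without milk proteins in the library size (0.012, adjusted p = 0.85) and with upper quartile scaling (0.071, adjusted p = 0.28). The summed level of the 5 genes was 354 ± 32.0 TMM-scaled RPKM in late pregnancy (SD, n = 9) and 401 ± 24.5 in lactation (SD, n = 6), with ranges that overlapped (317 to 420 and 368 to 432).

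**Figure D3:**
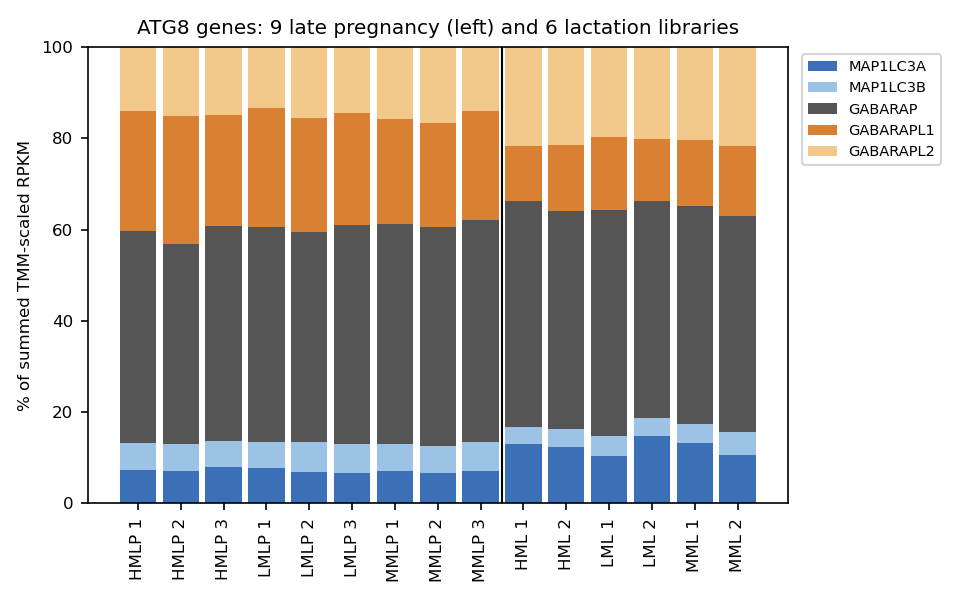
Share of each of the 5 ATG8 genes in their summed TMM-scaled RPKM (y axis, percent), 1 bar per library, with late pregnancy left of the vertical line and lactation right of it. GABARAP makes up 43.8% to 49.6% of every bar, while GABARAPL1 is 22.8% to 28.2% in late pregnancy and 12.1% to 16.0% in lactation.

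As shares of that sum, which do not depend on the scaling of the libraries, GABARAP made up 47.0% ± 1.47 in late pregnancy (SD, n = 9) and 48.3% ± 1.02 in lactation (SD, n = 6). GABARAPL1 went from 24.9% ± 1.72 to 14.4% ± 1.34, and its ranges did not overlap. MAP1LC3A went from 7.11% ± 0.456 to 12.4% ± 1.65 and GABARAPL2 from 14.9% ± 1.05 to 20.8% ± 0.917, and MAP1LC3B from 6.08% ± 0.346 to 4.18% ± 0.468, all without overlap. GABARAPL1 was thus above GABARAPL2 in each late pregnancy library and below it in each lactation library.

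Cargo receptors bind an ATG8 protein at one end and ubiquitinated or damaged cargo at the other. Of the 5 soluble receptors 4 rose, each without overlap between the states, and OPTN was not called. Among all genes tested, 33.1% were called higher and 40.2% had no overlap. TAX1BP1 (chromosome 4, 68299304 to 68389254) had 42.7, 47.9 and 59.8 TMM-scaled RPKM as lowest, median and highest in late pregnancy and 80.3, 81.9 and 89.8 in lactation. Every lactation library was above every late pregnancy library, with a log2 change of 0.77 ± 0.06 (adjusted p = 1.7e-09). SQSTM1, the receptor p62, ranged from 58.4 to 76.3 in late pregnancy and from 99.9 to 135 in lactation, a log2 change of 0.71 ± 0.07 (adjusted p = 2.6e-08). CALCOCO2 (NDP52) and NBR1 rose by log2 changes of 0.42 ± 0.05 and 0.41 ± 0.05 (adjusted p = 4e-07 and 1.8e-06). OPTN had -0.12 ± 0.09 (adjusted p = 0.26), and was called lower without milk proteins in the library size (-0.33, adjusted p = 0.0052), with the upper quartile (-0.27, adjusted p = 0.016) and in quantile-normalized values (-0.20, adjusted p = 0.046).

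The mitochondrial receptors BNIP3 and BNIP3L sit in the outer mitochondrial membrane and tie it to ATG8 proteins. Neither was called. BNIP3 (chromosome 22, 49672420 to 49676672) had 7.82, 8.76 and 10.3 TMM-scaled RPKM as lowest, median and highest in late pregnancy and 7.86, 10.7 and 11.6 in lactation, and the groups overlapped. Its log2 change was 0.21 ± 0.10 (adjusted p = 0.062), or 0.26 without HML pool 1 (adjusted p = 0.023). BNIP3L (NIX) had -0.14 ± 0.09 (adjusted p = 0.17), with lactation libraries from 17.0 to 29.9 around late pregnancy libraries from 23.8 to 28.2. It was -0.072 without HML pool 1 (adjusted p = 0.43), and it was called lower without milk proteins in the library size (-0.35, adjusted p = 0.0021), in quantile-normalized values (-0.34, adjusted p = 0.0022), with upper quartile scaling (-0.29, adjusted p = 0.0068), on junction reads (-0.27, adjusted p = 0.019) and with the 10-read filter on each library (-0.22, adjusted p = 0.031).

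Several members are relatives or share a role, so the ratio of 2 such genes was compared between states within each library, where scaling cancels. Of 11 ratios, 10 differed by an exact two-sided permutation test over all ways to assign the 15 libraries, adjusted over the 11. The smallest p this test allows is 0.0004. Ratios of other gene pairs were not tested, and 68.4% of all genes were called between the states. Whether 10 of 11 is more than for other pairs is therefore not known. MAP1LC3A over MAP1LC3B went from 1.17 in late pregnancy to 2.95 in lactation as the ratio of RPKM, a 2.52-fold shift (log2 difference 1.33, exact permutation p = 0.0004, adjusted p = 0.0011). GABARAPL1 over GABARAPL2 went the other way, from 1.67 to 0.687 (log2 difference -1.28, exact permutation p = 0.0004, adjusted p = 0.0011). ATG16L1 over ATG16L2 went from 3.19 to 6.83 (log2 difference 1.10, exact permutation p = 0.0008, adjusted p = 0.0018). Its libraries overlapped between the states, and ATG16L2 had few reads. GABARAP over GABARAPL1 went from 1.89 to 3.37 (log2 difference 0.84, exact permutation p = 0.0004, adjusted p = 0.0011). ULK1 over ULK2 went from 0.544 to 0.892 (log2 difference 0.71, exact permutation p = 0.0004, adjusted p = 0.0011), without overlap between the states. Smaller shifts were seen for WIPI1 over WIPI2 (log2 difference 0.43), SQSTM1 over NBR1 (0.29), BNIP3 over BNIP3L (0.35), ATG2A over ATG2B (-0.38) and ATG4C over ATG4D (-0.28), with exact permutation tests adjusted to p = 0.0022, 0.0057, 0.022, 0.018 and 0.037. ATG4A over ATG4B, whose genes both rose, had a log2 difference of 0.27 (exact permutation p = 0.0695, adjusted p = 0.07), which passed the threshold without HML pool 1 (0.36, adjusted p = 0.023) or LMLP pool 2 (0.32, adjusted p = 0.042). The ATG4C over ATG4D shift did not pass when HMLP pool 1 or 2, LMLP pool 2 or 3, MMLP pool 3, or LML or MML pool 1 or 2 was left out (adjusted p = 0.051 to 0.082), nor did BNIP3 over BNIP3L without LML pool 2 (adjusted p = 0.051).

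**Figure D4:**
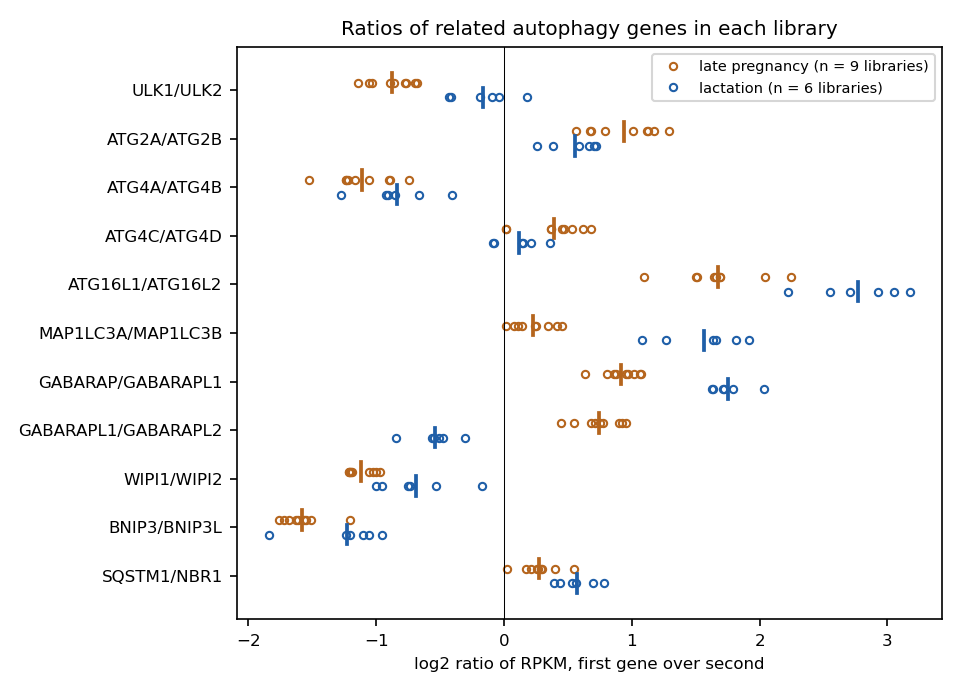
Log2 ratio of RPKM of 11 pairs of related autophagy genes (x axis, first gene over second) in each of the 9 late pregnancy and 6 lactation libraries (circles), with the mean of each state as a vertical bar. MAP1LC3A over MAP1LC3B lies at 0.01 to 0.45 in late pregnancy and 1.08 to 1.92 in lactation, and GABARAPL1 over GABARAPL2 changes sign between the states.

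Reads that fall within a gene but outside its annotated exons, called intron reads here, come in large part from RNA that is not yet spliced, though unannotated exons and overlapping genes add to them and the kit does not keep the strand. Tested in the same way, 16 of 36 members with enough intron reads were called, 10 higher and 6 lower, or 44.4% against 58.0% of all 10344 genes tested. Of the members called higher on exons, 9 were also called higher on introns and 9 were not called there. ATG12 (0.91 ± 0.10), AMBRA1 (0.85 ± 0.09), ULK1 (0.78 ± 0.15), ATG16L1 (0.72 ± 0.09), ATG4A (0.69 ± 0.14) and TAX1BP1 (0.66 ± 0.09) had intron log2 changes of the same sign as their exon changes. GABARAPL1, the largest fall on exons, also had the largest fall on introns, by 1.04 ± 0.16 on the log2 scale (adjusted p = 3.8e-06). For 5 members not called on exons, the introns were called lower, which were ATG4C (-0.81 ± 0.12), ATG10 (-0.74 ± 0.12), BNIP3L (-0.64 ± 0.17), ATG13 (-0.48 ± 0.12) and ATG4D (-0.45 ± 0.17). ULK2 was lower on exons and higher on introns (0.35 ± 0.12, adjusted p = 0.012). MAP1LC3A and MAP1LC3B had at most 13 and 18 intron reads in any library and were not tested.

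**Figure D5:**
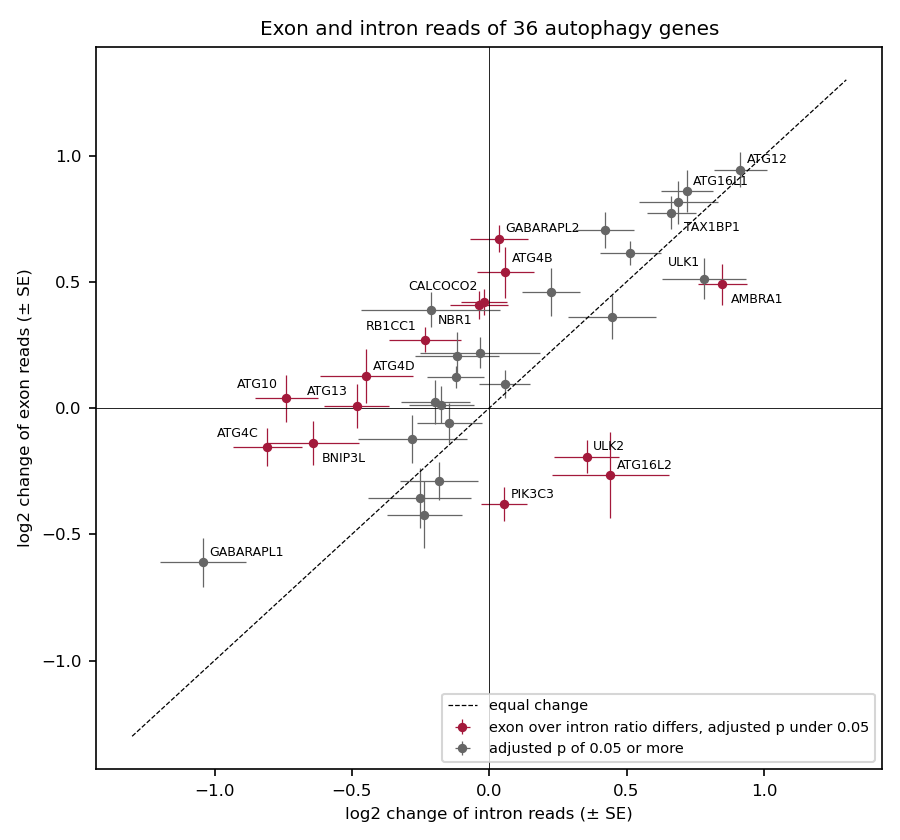
Log2 change of exon reads (y axis) against log2 change of intron reads (x axis), lactation over late pregnancy, for 36 autophagy genes, with bars for ± 1 SE and a dashed line of equal change. Red points are the 14 genes whose exon over intron ratio was called, 10 above the line and 4 (ULK2, ATG16L2, PIK3C3 and AMBRA1) below it.

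The difference between exons and introns was tested on the log2 ratio of exon over intron reads, centred on the median of all genes in each library, with limma. This comparison was added after the values had been seen. Of the 36 members 14 were called, 38.9% against 33.2% of all 9800 genes tested, and 10 of them had a higher ratio in lactation. GABARAPL2 combined a rise on exons with an intron change of 0.04 ± 0.10, a log2 difference in the ratio of 0.61 ± 0.08 (adjusted p = 4.6e-05), and CALCOCO2 (0.41 ± 0.08, adjusted p = 0.00083), NBR1 (0.42 ± 0.12, adjusted p = 0.013) and ATG4B (0.45 ± 0.11, adjusted p = 0.0041) were of the same kind. Among members with no call on exons the ratio rose for ATG10 (0.76 ± 0.12), ATG4C (0.66 ± 0.12), BNIP3L (0.57 ± 0.17), ATG4D (0.56 ± 0.15) and ATG13 (0.46 ± 0.13), and it fell for ATG16L2 (-0.75 ± 0.14). Intron reads per library were few for ATG16L2 (5 to 33), ATG4D (8 to 66) and BNIP3L (10 to 203), and the test did not weight by depth. PIK3C3, lower on exons, had an intron change of 0.05 ± 0.08 and a ratio lower by 0.48 ± 0.10 in log2 units (adjusted p = 0.0013). The share of reads outside exons was lower in lactation, as given above. Before centring, the median log2 ratio over genes was 1.72 to 1.95 in late pregnancy libraries and 1.75 to 1.96 in lactation libraries. The part of the lower share in these ratios beyond the centring was not tested.

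Feeding of the dams was compared within late pregnancy by an edgeR F-test over the 3 groups of 3 libraries. None of the 38 members was called, 1 had an unadjusted p under 0.05, and DESeq2 called 0. Over all 13747 genes tested, 0.00% were called and 4.15% had an unadjusted p under 0.05. The member with the lowest p was GABARAPL1 (adjusted p = 1 by edgeR), which averaged 97.3 TMM-scaled RPKM in HMLP (87.2 to 104), 90.5 in LMLP (79.3 to 109) and 77.7 in MMLP (75.1 to 80.0), with overlap of LMLP with each of the other groups. A different response to lactation by dam group was tested as the interaction over all 15 libraries. Again 0 members were called by edgeR and by DESeq2, 3 had an unadjusted p under 0.05, and of all 13345 genes 0.00% were called and 6.56% had such a p. Those members were ULK2, GABARAPL1 and MAP1LC3B (each with an adjusted p = 0.74 by edgeR). In all 3 the fall was smallest or absent in the MM group, where the log2 ratio of group means was 0.07 for ULK2, -0.31 for GABARAPL1 and -0.07 for MAP1LC3B, against -0.37, -0.98 and -0.60 in HM and -0.32, -0.57 and -0.41 in LM. The 3 members were picked by that p, so their shared pattern is not a separate result. With 2 lactation libraries per dam group these differences are values without a call. The 19 members called higher had a log2 ratio of group means above 0 in each dam group, and 6 of the 7 called lower had one below 0 in each, with ULK2 in MM as the exception. The calls and these group means come from the same 15 libraries, so the signs are not a separate test. How often other called genes keep their sign in each dam group was not worked out.

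Genes around the core machinery were followed in 6 lists, of which 85 genes were tested, and 38 rose, 21 fell and 26 were not called. The called genes are 69.4% of those tested (44.7% higher and 24.7% lower), beside 68.4% of all genes (33.1% higher and 35.2% lower), and whether the split by direction differs was not tested. Upstream control by mTORC1 and AMPK had 9 rises and 2 falls among 16, and its largest changes were in PRKAA2, a catalytic AMPK subunit (log2 1.25 ± 0.15, adjusted p = 3.6e-07), RRAGB, a Rag GTPase that brings mTORC1 to the lysosome (-1.21 ± 0.16, adjusted p = 1.3e-06), and RPTOR, the mTORC1 scaffold (1.12 ± 0.07, adjusted p = 2.1e-11). Among 12 transcription factors 5 rose and 4 fell. ATF4, the effector of the integrated stress response, rose from 161 to 194 CPM in late pregnancy to 558 to 780 CPM in lactation (log2 1.92 ± 0.07, adjusted p = 7.3e-15), and FOXO3 rose by a log2 change of 1.84 ± 0.12 (adjusted p = 5.9e-11). TFEC, a low-level relative of TFEB, fell by 1.20 ± 0.36 (adjusted p = 0.0056). Of 13 further genes of initiation 7 rose and 3 fell, and TBC1D14, a regulator of ATG9A traffic, fell by 2.27 ± 0.11 (adjusted p = 7.5e-13) while the sorting nexins SNX18 and SNX4 moved apart (0.86 ± 0.11 and -0.73 ± 0.07, adjusted p = 8.1e-07 and 4e-08).

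Of 16 genes of fusion with the lysosome 6 rose and 4 fell. TECPR1, a tether between autophagosome and lysosome, and the SNARE proteins YKT6 and SNAP29 rose by log2 changes of 0.99 ± 0.11, 0.82 ± 0.06 and 0.76 ± 0.09 (adjusted p = 2.3e-07, 7.6e-10 and 3e-07). Of 13 mitophagy genes 5 rose and 3 fell, with PINK1, the kinase that marks damaged mitochondria, up by 0.78 ± 0.07 (adjusted p = 6.6e-09), and PHB2, an inner membrane receptor, and MFN1, a fusion GTPase, down by 0.85 ± 0.07 and 0.72 ± 0.07 (log2 -0.85 and -0.72, adjusted p = 8.5e-10 and 7.4e-09). Of 15 receptors for the endoplasmic reticulum and other cargo 6 rose and 5 fell. FAM134B (RETREG1), a receptor for autophagy of the endoplasmic reticulum, went from 21.7 to 43.3 CPM in late pregnancy to 303 to 394 CPM in lactation, an 11.8-fold rise (log2 3.55 ± 0.14, adjusted p = 1.6e-14). SEC62, another receptor of that compartment, rose by a log2 change of 1.11 ± 0.08 (adjusted p = 1.1e-10), and STBD1, a glycogen-binding receptor at about 1 CPM, fell by 1.32 ± 0.27 (adjusted p = 0.00022). The median log2 changes of the lists lay between 0.03 for mitophagy and 0.35 for upstream control, against -0.03 over all genes.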

How the data were processed

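The authors sequenced pooled RNA (TruSeq RNA v2 kit, Illumina HiSeq, paired ends) and mapped it in CLC Genomics Workbench to the sheep genome, given as version 3.2 in the paper and as Oar_v3.1 in the submitters' processing notes. The deposited counts are reads per gene on exons and on the whole gene, with no normalization. The deposited RPKM values of the authors divide exon reads by exon length and by total reads, and the authors' normalized values are quantile-normalized RPKM. RPKM recomputed from the counts lay within 3.5e-07 of the deposited values. Deposited columns of the authors' own test hold fold changes and p-values, and were not used.

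The test took exon reads (whole-gene reads for 5583 features that have no transcript) into edgeR 4.0.16 (R 4.3.3), with filterByExpr by state, TMM, and the quasi-likelihood F-test without covariates. P-values were adjusted by Benjamini-Hochberg over all genes tested. Ratios used a pseudocount of 0.5 reads and Python 3.11.15 with scipy 1.17.1. Intron reads are whole-gene less exon reads, and the exon over intron ratio was tested with limma 3.58.1. DESeq2 1.42.0, 4 other scalings, 2 other filters, unique and junction reads, covariates, a replicate block and leaving out each library were the alternatives. Scripts were tested on simulated data. No pair of libraries was identical. Reads carry no molecular identifiers, so precision is given by the spread between pools, which mixes ewe and technical variation. Members are named by role, with all levels for the largest change per role, and the 3 largest called changes of each list. The members and lists were chosen with earlier results of these data known. No sequence of these genes was used here.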

Additional observations from a re-analysis of the deposited data

Results flagged for a closer look

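Over 76 groups of values (38 genes in 2 states), 3 held a library far from the others by Dixon's test, where chance gives about 1 in 20 groups. GABARAPL2 was 93.9 TMM-scaled RPKM in MML pool 2, against 80.1 to 82.9 in the other 5 lactation libraries. SQSTM1 was 135 TMM-scaled RPKM in the same library, against 99.9 to 113 in the other 5. NBR1 was 65.1 TMM-scaled RPKM in HML pool 1, against 75.1 to 78.1 in the other 5, and HML pool 1 is the library with the high share of reads outside exons. The calls of these 3 genes held without either library.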

How the results depend on the processing

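Against 26 members called (19 higher, 7 lower), the counts were within 1.5 times of these with DESeq2, no filter, a filter of 10 reads in every library, unique reads, junction reads, dam nutrition or lane as covariate, and with each library left out (26 to 28 called). Scaling moved the directions. With total reads alone 0 members were called higher and 38 lower, beside 352 and 12705 of all 13345 genes. The members called lower were 13 with library sizes that leave out milk proteins, 12 with upper quartile scaling and 11 with limma on quantile-normalized RPKM. Of all genes, 6476, 5990 and 5085 were called lower under these settings. The median log2 change of the members, 0.17 as reported, was -1.74 with total reads alone, -0.041 without milk proteins, 0.017 with the upper quartile, 0.054 with quantile-normalized RPKM and 0.084 with 10 reads in every library. With total reads alone the intron reads of 25 members were called, against 16, and 1 gene of the 6 lists was called higher and 82 lower, against 38 and 21. The median of all genes, -0.03 as reported, was -1.94 with total reads alone and -0.014 with 10 reads in every library.

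Log2 changes that turned negative with total reads alone were -1.40 for ULK1, -1.64 for RB1CC1, -1.90 for ATG13, -1.78 for BECN1, -1.41 for AMBRA1, -1.89 for ATG2B, -1.81 for ATG3, -1.10 for ATG4A, -1.37 for ATG4B, -1.78 for ATG4D, -1.54 for ATG7, -1.52 for ATG9A, -1.87 for ATG10, -0.96 for ATG12, -1.04 for ATG16L1, -0.93 for MAP1LC3A, -1.68 for GABARAP, -1.23 for GABARAPL2, -1.45 for WIPI1, -1.88 for WIPI2, -1.21 for SQSTM1, -1.50 for NBR1, -1.48 for CALCOCO2, -1.29 for VMP1, -1.13 for TAX1BP1 and -1.70 for BNIP3. BECN1 also turned without milk proteins (-0.087), with the upper quartile (-0.027) and in quantile-normalized values (-0.11), GABARAP in the last (-0.060), and ATG2B without milk proteins (-0.20). The cause of these sign changes was not tested.

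With the pool number as a replicate block over 6 pairs, 24 members were called (18 higher, 6 lower), ULK2 and BECN1 losing their calls (adjusted p = 0.089 and 0.11), and 9 of 11 ratios and 57 list genes passed. Same-numbered pools correlated at -0.03 to 0.09 in their deviations from state means, and 4 of 12 correlated best with their own number. How many would do so by chance was not worked out. Ewes were biopsied in both states, but whether same-numbered pools hold the same ewes is not given. These values do not settle the pairing, and the main test treats the libraries as unpaired. With 1 library left out, 8 to 11 ratios, 57 to 62 list genes, 15 to 17 members on introns and 14 to 16 on the exon over intron ratio were called. No member was called for dam nutrition or the interaction under any alternative run. Depth limits ATG16L2 most, with 10 reads in 1 library, and biopsies of whole tissue leave the cell type of each change unresolved.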
